A study of Mus musculus with 8 samples.

Results

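Of the 32285 genes in the deposited count matrices, 7 genes of the glucocorticoid system were followed through every annotated cell cluster of the mouse striatum and through 8 inbred strains: the receptors Nr3c1 and Nr3c2, the receptor co-chaperone Fkbp5, the hormone-responsive genes Sgk1, Tsc22d3 and Zbtb16, and the stress-hormone receptor Crhr1. They were chosen by name for what they are known to do, with earlier results of these data known, and all 7 have a row in the matrices. Nuclei came from striatum of 32 mice aged 12 weeks, 4 from each of the strains A/J, C57BL/6, 129S1/SvImJ, NOD/ShiLtJ, NZO/HlLtJ, CAST/EiJ, PWK/PhJ and WSB/EiJ, with RNA and open chromatin read from the same nuclei (single-nucleus multiome). The C57BL/6 mice are given as C57BL/6J in the series' labels and as C57BL/6NJ in the deposited nucleus table, so the substrain is left out of the name here. Nuclei were mixed in 4 batches, each holding 1 mouse of every strain (4 males and 4 females), and the labels name no treatment. The labels do not tie a sex to a mouse, and no fit holds a term for sex. The part of sex in the differences between mice and strains was not tested. The mouse is the replicate throughout, and a difference between strains is read against the spread between the 4 mice of a strain.

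Glucocorticoids are steroid hormones of the adrenal cortex that cross the blood-brain barrier and bind a pair of related nuclear receptors, the glucocorticoid receptor and the higher-affinity mineralocorticoid receptor. The bound receptor enters the nucleus and raises or lowers the transcription of target genes, and Fkbp5 is a classic target that in turn lowers the receptor's affinity for hormone. Hormone levels follow the time of day and rise with stress, and corticotropin-releasing hormone, which acts on the receptor encoded by Crhr1, stands at the head of that axis.

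The deposited annotation placed 55672 nuclei in 18 clusters, with a median of 4329 unique molecular identifiers (UMIs, 1 per captured RNA molecule) per nucleus. The 4 batches held 11826 to 15626 annotated nuclei, and batch 3 was the shallowest, with a median of 3232 UMIs against 4593 to 4931 in the others. Counts were summed per mouse and cluster where at least 10 nuclei were present, and 9 clusters held enough mice of every strain for a test. The library of a single mouse summed to a median of 3011720 counts in Drd1+ neurons, 591028 in oligodendrocytes, 360351 in astrocytes and 113960 in macrophages. Of the annotated nuclei, 1517 barcodes occurred in more than 1 batch, and each was counted within its own batch. Listed markers were used to check the cluster names. Mog, a myelin gene, was highest in the oligodendrocytes at 1140 CPM (counts scaled to a library of 1000000). Aqp4 was highest in the astrocytes at 375 CPM, Csf1r in the macrophages at 1240 CPM and Flt1 in the endothelium at 2793 CPM. Drd1 was highest in Drd1+ neurons at 219 CPM and Drd2 in Drd2+ neurons at 437 CPM. Some listed markers peaked elsewhere. Of those for Drd1 projection neurons, Isl1 was highest in Chat+ interneurons (143 against 23.6 CPM in Drd1+ neurons). Tac1 was highest in Drd1+ neuron_2 (612 against 310 CPM). Pdgfra, listed for precursors, was highest in fibroblasts (347 CPM). The WSB/EiJ mice of batches 3 and 4 stood apart from the other WSB/EiJ mice for several of the 7 genes in glia and macrophages, so the strain terms and WSB/EiJ calls in those clusters were also computed without them. In the 4 macrophage libraries of 129S1/SvImJ the summed astrocyte markers reached 3258 to 4849 CPM, against 188 to 657 CPM in the other 28. This was 1 of the 4 listed genes, Slc1a3, a glutamate transporter (3178 to 4761 against 103 to 604 CPM), while Aqp4, Gja1 and Aldh1l1 lay within the range of the other strains.

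The order of the clusters is described first, over the 14 clusters with at least 10 mice, as the mean CPM ± SD over mice. Levels are compared within a gene only, since the matrices hold counts of molecules with no correction for gene length. Neighbours in each order were compared by an exact or 100000-draw sign-flip permutation test on the mice they share, two-sided, adjusted over 91 pairs, of which 11 passed at an adjusted p under 0.05.

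Nr3c1, the glucocorticoid receptor, was read in every cluster. It was highest in macrophages (286 ± 74.5 CPM, n = 32) and above the next cluster, endothelium (203 ± 51.9 CPM, n = 29), in 23 of 29 mice (permutation test, adjusted p = 0.00036). Endothelium, Slc17a7+ neurons (203 ± 52 CPM, n = 20), oligodendrocytes (193 ± 24.7 CPM, n = 32) and astrocytes (190 ± 38.1 CPM, n = 32) followed, and no neighbours among them differed beyond their spread. The Drd1+ and Drd2+ neurons, which carry the D1 and D2 dopamine receptors and send axons out of the striatum, stood at 98.3 ± 15.4 and 99.8 ± 14.2 CPM (n = 32 each).

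Nr3c2, the mineralocorticoid receptor, had another order. Among the 14 clusters with at least 10 mice it was highest in astrocytes (413 ± 74.9 CPM, n = 32) and in the second Drd1+ cluster, Drd1+ neuron_2 (387 ± 67.6 CPM, n = 32), and this pair did not differ beyond its spread. Fibroblasts, with too few nuclei per mouse for a mean over mice, held 587 CPM over their pooled counts (exact 95% Poisson interval 497 to 689, counting error only). The pooled level in astrocytes was 426 CPM. Drd2+ neurons stood at 288 ± 37.6 CPM and Drd1+ neurons at 254 ± 27.8 CPM, while oligodendrocytes held 106 ± 24.6 CPM (n = 32 each). Macrophages, the cluster highest for the other receptor, were at 133 ± 39.6 CPM and above oligodendrocytes (permutation test, adjusted p = 0.0086), the single pair of neighbours in this order that passed.

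Fkbp5, the co-chaperone, was highest in macrophages, at 344 ± 314 CPM with a median of 245 CPM (n = 32), above the next cluster (permutation test, adjusted p = 0.00023). The SD nearly as large as the mean shows how far the mice lay apart, and oligodendrocytes (66.3 ± 82.9 CPM) and astrocytes (30.3 ± 44 CPM) had an SD above the mean. In the Drd1+ and Drd2+ neurons the spread was small beside the level (56.9 ± 12.4 and 58.8 ± 12.4 CPM). Thus the same gene varied little between mice in projection neurons and widely in glia and macrophages.

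Sgk1, a kinase that regulates ion channels and transporters, was highest among the 14 clusters in Drd1+ neurons (340 ± 58 CPM) and lower in Drd2+ neurons (290 ± 54 CPM) in 32 of 32 mice (permutation test, adjusted p = 0.00023). The Polydendrocyte/Oligodendrocyte cluster (237 ± 108 CPM, n = 27) and oligodendrocytes (227 ± 208 CPM, n = 32) came next and did not differ beyond their spread, and astrocytes held the lowest level, 12.6 ± 10.3 CPM (n = 32). The second Drd1+ cluster, at 58.7 ± 28.8 CPM, was far from the main one. Unknown_2, a cluster with too few nuclei per mouse for a mean over mice, held 454 CPM over its pooled counts (exact 95% Poisson interval 366 to 557, counting error only). The pooled level in Drd1+ neurons was 344 CPM.

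Tsc22d3, which encodes the anti-inflammatory protein GILZ, was highest in oligodendrocytes (163 ± 42 CPM, n = 32), then in endothelium (113 ± 77.9 CPM, n = 29) and astrocytes (82.4 ± 46.9 CPM, n = 32), and both steps passed (permutation test, adjusted p = 0.0057 and 0.049). Among projection neurons it was low, with 3.48 ± 1.04 CPM for Drd1+ and 3.92 ± 1.29 CPM for Drd2+. Zbtb16, a zinc finger transcription factor, had the same 2 leading clusters, with 226 ± 260 CPM in oligodendrocytes and 128 ± 97.9 CPM in endothelium (permutation test, adjusted p = 0.012). Projection neurons held little of it, 1.17 ± 0.863 CPM for Drd1+ and 1.22 ± 0.762 CPM for Drd2+. Nxph1+ interneurons (126 ± 90.9 CPM, n = 32) and Slc17a7+ neurons (91.3 ± 71.6 CPM, n = 20) did not differ beyond their spread (permutation test, adjusted p = 0.0758). Fibroblasts, outside these orders for too few nuclei per mouse, held 205 CPM of Zbtb16 over pooled counts (exact 95% Poisson interval 153 to 269, counting error only). For Tsc22d3 they held 146 CPM (103 to 201). The pooled levels in oligodendrocytes and endothelium were 224 and 140 CPM for Zbtb16 and 161 and 117 CPM for Tsc22d3.

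Crhr1, a G protein-coupled receptor for corticotropin-releasing hormone, was read mainly in neurons. It was highest in Slc17a7+ neuron_2 (26 ± 15 CPM, n = 16) and Drd1+ neuron_2 (22.9 ± 14.4 CPM, n = 32), which did not differ beyond their spread (permutation test, adjusted p = 0.375), and with at least 30 nuclei per library Drd1+ neuron_2 came first. Drd2+ neurons (10.9 ± 10.2 CPM) were above Drd1+ neurons (4.35 ± 3.39 CPM) in 32 of 32 mice (permutation test, adjusted p = 0.00023). In macrophages no count was found in any of the 32 mice, and oligodendrocytes and astrocytes held 13 and 4 counts in all. The Chat+ interneurons, with too few nuclei per mouse for a mean over mice, held 42.5 CPM over their pooled counts (exact 95% Poisson interval 30.5 to 57.7, counting error only). The pooled level in Slc17a7+ neuron_2 was 31.4 CPM (26.0 to 37.6), and the intervals overlapped.

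**Figure D1:**
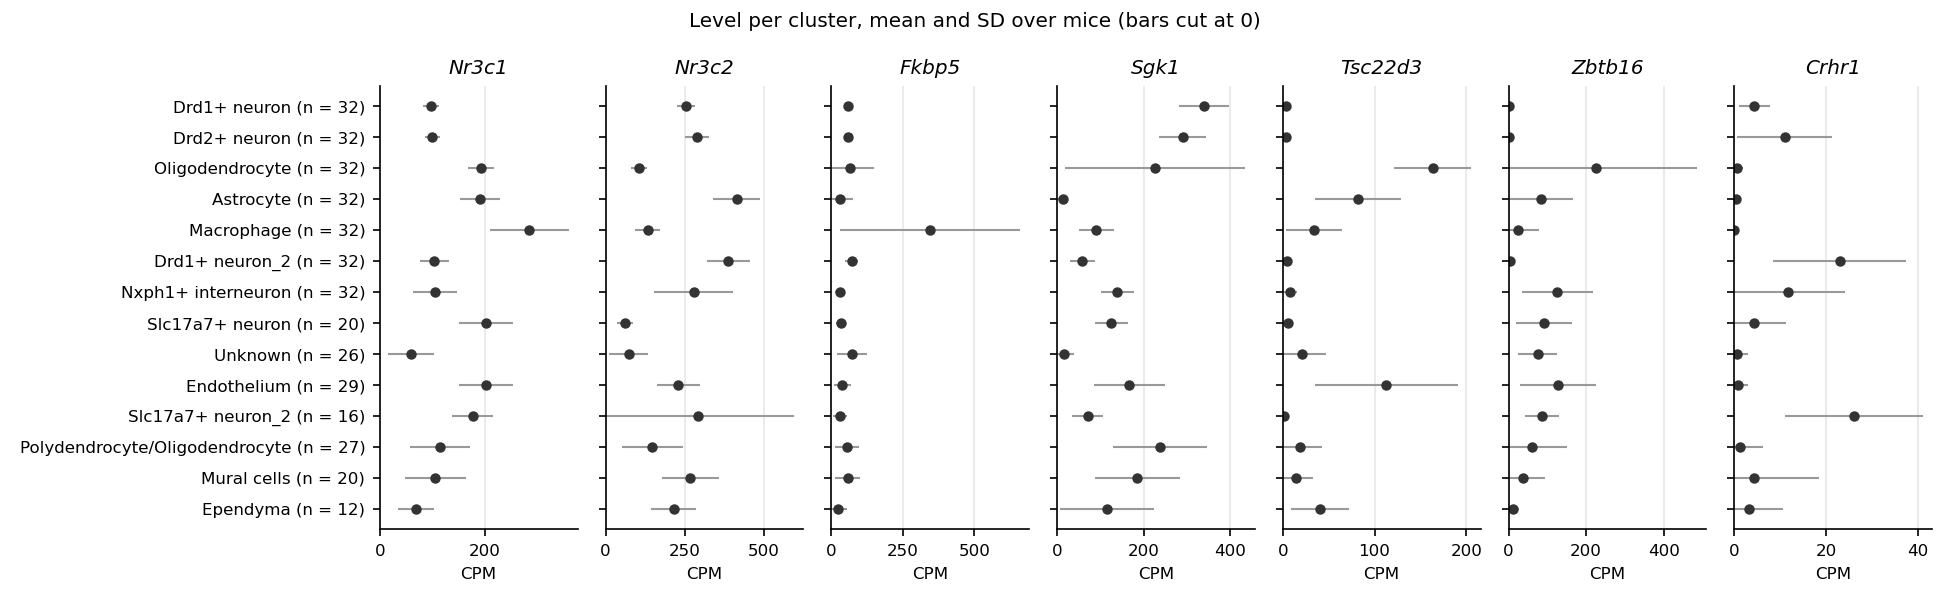
Mean level (point) and SD over mice (bar, cut at 0) of each gene in 14 clusters, in CPM on a linear axis of its own for each gene, with the number of mice beside the cluster. Nr3c1 and Fkbp5 peak in macrophages, Nr3c2 in astrocytes, Sgk1 in Drd1+ neurons, Tsc22d3 and Zbtb16 in oligodendrocytes and Crhr1 in Slc17a7+ neuron_2 (Drd1+ neuron_2 with at least 30 nuclei per library), and the SD of Fkbp5 in macrophages (314) is close to its mean (344).

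Strain was tested in each of 9 clusters with edgeR's quasi-likelihood test, with the batch as a block, over every gene that passed the filter on low counts, and p-values were adjusted over all those genes (Benjamini-Hochberg). The 7 genes gave 46 tests, of which 24 passed. Many genes differ between these strains, so each count is given with the share of all tested genes that passed. In Drd1+ neurons 5 of 6 tested members passed against 61.7% of all genes, and in Drd2+ neurons 5 of 6 against 55.9%. Oligodendrocytes had 4 of 6 against 34.8%, astrocytes 4 of 6 against 21.5%, macrophages 2 of 4 against 24.8% and Drd1+ neuron_2 2 of 5 against 17.3%. Endothelium had 2 of 6 against 3.23%, Nxph1+ interneurons 0 of 4 against 1.53%, and the Polydendrocyte/Oligodendrocyte cluster 0 of 3 against 1.24%. In projection neurons most members passed, as did most genes, and in oligodendrocytes and astrocytes the members' share was above that of all genes, on 4 genes each. From here on the CPM of a mouse is taken over the counts of the genes that passed the filter in its cluster, scaled by edgeR's TMM factors. This raises the values by an amount that depends on the cluster. Mean Fkbp5 was 424 CPM on this scale and 344 CPM on the earlier one in macrophages, but 57.3 and 56.9 CPM in Drd1+ neurons. Values are therefore not compared across the scales. Summed and single cell type markers stay in CPM over all counts of a library.

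By member, Crhr1 passed in 3 of 3 clusters where it was tested, Fkbp5 in 5 of 7, Zbtb16 in 3 of 4, Tsc22d3 in 3 of 5, Sgk1 in 5 of 9, Nr3c2 in 3 of 9 and Nr3c1 in 2 of 9. Each strain was also set against the mean of the other 7, and 53 of 368 such contrasts passed, against 10.8% over all genes and the 9 clusters. The fold of a strain comes from this fitted contrast on the log scale, not from a ratio of mean CPM. WSB/EiJ was higher in 10 of 46 contrasts (5.25% over all genes) and lower in 3 (3.92%), or without its mice of batches 3 and 4 higher in 4 of 43 and lower in none. The shares over all genes belong to the full fit and were not taken with mice left out. CAST/EiJ was higher in 8 (9.22%) and lower in 1 (8.30%), and 129S1/SvImJ was higher in 6 (4.20%) and lower in none (2.37%). NOD/ShiLtJ was lower in 6 (3.16%) and higher in 3 (4.98%), and NZO/HlLtJ lower in 4 (4.28%) and higher in none (5.97%). PWK/PhJ was higher in 4 (9.18%) and lower in 4 (9.21%), A/J higher in 1 (5.46%) and lower in 1 (3.35%), and C57BL/6 higher in 1 (4.50%) and lower in 1 (2.85%). With 1 batch left out, WSB/EiJ was higher in 6 to 11 contrasts, CAST/EiJ in 5 to 7 and 129S1/SvImJ in 1 to 7 (1 without batch 4), and NOD/ShiLtJ was lower in 3 to 5 and NZO/HlLtJ in 2 to 4. PWK/PhJ was then higher in 3 to 4 and lower in 2 to 4, and WSB/EiJ lower in 0 to 3.

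The receptors had narrow spans between strains in projection neurons, 0.40 to 0.54 on the log2 scale, against a median over all genes of 0.65 in Drd1+ and 0.64 in Drd2+ neurons. In Drd1+ neurons Nr3c1 was 141, 127, 112 and 115 CPM in the CAST/EiJ mice of batches 1 to 4, against a range of 70.5 to 117 in the other 28 mice. The CAST/EiJ mice were the highest in each of the 4 batches, and their range overlapped that of the rest. The strain stood 1.30-fold above the mean of the others (log2 0.38 ± 0.07 SE, edgeR adjusted p = 3.23e-05), and in Drd2+ neurons, where its mice held 131, 138, 113 and 115 CPM, 1.28-fold above (adjusted p = 0.000106). WSB/EiJ was lower in Drd1+ neurons (117, 79.1, 73.2 and 70.5 CPM, 0.849-fold, adjusted p = 0.0224), a call that was lost without its mice of batches 3 and 4 (adjusted p = 0.537).

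In the glia and macrophages the strain term of Nr3c1 did not pass: strain means in oligodendrocytes reached at most 209 CPM, for 129S1/SvImJ, and at least 187 CPM, for WSB/EiJ (adjusted p = 0.843). This was the narrowest span of any member in that cluster, 0.16 on the log2 scale, where the median over all tested genes was 0.68.

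Nr3c2 was highest in NOD/ShiLtJ in both kinds of projection neuron. The NOD/ShiLtJ mice held 321, 315, 273 and 309 CPM in Drd1+ neurons and were the highest of their batch in each. The strain was 1.23-fold above the mean of the others there (log2 0.29 ± 0.05 SE, adjusted p = 2.63e-05) and 1.24-fold above in Drd2+ neurons, with 373, 370, 285 and 367 CPM (adjusted p = 7.21e-05). The strain term in Drd2+ neurons (adjusted p = 0.000187) was 0.0551 with no batch block. In astrocytes the order changed: A/J mice held 615, 532, 456 and 623 CPM, 1.33-fold above the others (adjusted p = 0.00321), and CAST/EiJ mice 421, 290, 260 and 403 CPM, 0.786-fold (adjusted p = 0.0322). The A/J call was lost without batch 1 or batch 4 and the CAST/EiJ call under 6 of 9 alternatives, with adjusted p up to 0.102 and 0.468.

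Both receptors also moved with the batch in projection neurons. The batch term passed for 6 of 46 tests of the members, against 15.9% over all genes and clusters. These included Nr3c1 and Nr3c2 in Drd1+ neurons (adjusted p = 0.00128 and 0.000203, against 24.8% of all genes there) and in Drd2+ neurons (adjusted p = 0.00195 and 1.9e-05, against 21.7%). Nr3c1 averaged 109, 104, 87.2 and 96.1 CPM over the 8 Drd1+ libraries of batches 1 to 4, and Nr3c2 averaged 270.3, 269, 228 and 255 CPM. Batch 3, the shallowest, was the lowest for both receptors, and the part of depth in this was not tested. Nr3c2 in Nxph1+ interneurons (adjusted p = 0.0291, against 3.34%) and Tsc22d3 in endothelium (adjusted p = 0.0234, against 25.6%) made up the 6, and without batch 3 none of the 6 passed.

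Fkbp5 differed most between strains outside the neurons. In oligodendrocytes the WSB/EiJ mice of batches 1 to 4 held 49.2, 76.3, 366 and 311 CPM, the CAST/EiJ mice 151, 141, 72.8 and 63.6 CPM, and the 129S1/SvImJ mice 119, 69.3, 57.9 and 207 CPM. At the other end stood the NOD/ShiLtJ mice with 12.5, 5.51, 15.8 and 11 CPM and the NZO/HlLtJ mice with 18, 22.8, 8.98 and 10.5 CPM. A/J (43.3, 57.6, 28.4 and 34 CPM), C57BL/6 (25, 41.2, 28.3 and 31.6 CPM) and PWK/PhJ (29.9, 20.4, 30.4 and 19.2 CPM) lay between. Every NOD/ShiLtJ and NZO/HlLtJ mouse was below every WSB/EiJ, CAST/EiJ and 129S1/SvImJ mouse, and no single strain stood clear of all the rest.

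The span from the highest to the lowest strain of Fkbp5 in oligodendrocytes was 4.08 on the log2 scale (strain term, edgeR adjusted p = 5.32e-05), the 154th largest of 9082 genes tested there. WSB/EiJ was 5.18-fold above the mean of the other 7 (log2 2.37 ± 0.37 SE, adjusted p = 8.64e-05), 129S1/SvImJ 3.06-fold (adjusted p = 0.00983), CAST/EiJ 2.98-fold (adjusted p = 0.0149), and NOD/ShiLtJ was at 0.205-fold (log2 −2.29 ± 0.64 SE, adjusted p = 0.0247). The WSB/EiJ contrast rested on 2 of its 4 mice: without those of batches 3 and 4 it was 1.58-fold with adjusted p = 0.557, while the strain term itself still passed (adjusted p = 2.31e-06). The 129S1/SvImJ call was lost without batch 1 or 4 (adjusted p up to 0.311), the CAST/EiJ call without batch 1 or 2 (up to 0.159) and the NOD/ShiLtJ call without any 1 of the 4 batches (up to 0.144).

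In macrophages WSB/EiJ and CAST/EiJ were again high for Fkbp5 and NZO/HlLtJ low. The WSB/EiJ mice held 267, 452, 1947 and 1074 CPM, the CAST/EiJ mice 901, 1137, 454 and 636 CPM, and the NZO/HlLtJ mice 52.6, 164, 63.4 and 96.8 CPM. The batch 3 WSB/EiJ library was again the highest of all 32, and NZO/HlLtJ lay below every CAST/EiJ and WSB/EiJ mouse. CAST/EiJ was 2.87-fold above the others (adjusted p = 0.00797), NZO/HlLtJ at 0.217-fold (adjusted p = 0.024), and WSB/EiJ 2.95-fold above (adjusted p = 0.00506), or 1.16-fold without its mice of batches 3 and 4 (adjusted p = 0.925). The NZO/HlLtJ call was lost without any 1 batch and the CAST/EiJ call without batch 2 or 4 (adjusted p up to 0.164 and 0.119). Without the 4 libraries of 129S1/SvImJ all 3 calls and the strain term still passed (adjusted p of the strain term = 0.000368). The macrophage libraries of CAST/EiJ (210 to 476 CPM), NZO/HlLtJ (133 to 258 CPM) and PWK/PhJ (133 to 246 CPM) held more of the summed endothelial markers than the median library (61.6 CPM). Of the 4 listed genes this was Pecam1, an adhesion molecule (189 to 476, 92.8 to 247 and 106 to 221 CPM, against medians of 11.2 to 18.1 CPM in the other strains), while Flt1, Cldn5 and Slco1a4 were at 0 in some libraries of each of the 3 strains. The part of these markers in the levels of Fkbp5 was not tested.

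Astrocytes had far fewer counts for Fkbp5, 331 over all 32 libraries, and 1 C57BL/6 library held none. The CAST/EiJ mice held 126, 133, 71 and 35.2 CPM against 2.52, 31.4, 206 and 86.1 CPM in WSB/EiJ and 6.58, 2.18, 4.62 and 9.08 CPM in NOD/ShiLtJ. CAST/EiJ was 6.85-fold above the other 7 (log2 2.78 ± 0.51 SE, adjusted p = 0.000733), and its mice lay within the range of the other strains, where the WSB/EiJ mouse of batch 3 was the highest. WSB/EiJ was not called (3.77-fold, adjusted p = 0.0534), and without its mice of batches 3 and 4 it stood at 0.894-fold (adjusted p = 0.984) and CAST/EiJ at 7.58-fold (adjusted p = 1.03e-07). The strain term passed (adjusted p = 0.00273), also without those mice (adjusted p = 3.99e-06), and was lost without batch 2 (adjusted p = 0.0693).

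In projection neurons the differences in Fkbp5 were small. CAST/EiJ was highest, with 82.9, 91.3, 72.4 and 60 CPM in Drd1+ neurons (1.43-fold, adjusted p = 0.00244) and 94.3, 89.7, 77 and 50.3 CPM in Drd2+ neurons (1.41-fold, adjusted p = 0.00399), and its mice overlapped those of other strains. The strain terms lay close to the threshold (adjusted p = 0.048 and 0.0498) and each was lost without batch 1, 2 or 3 (up to 0.267 and 0.346). The CAST/EiJ contrast was lost without batch 1 in Drd1+ neurons (adjusted p = 0.0513) and without batch 1, 2 or 3 in Drd2+ neurons (up to 0.108). The spans were 0.64 in Drd1+ neurons against 4.08 in oligodendrocytes, and the strain-by-cluster term in 1 model of both clusters passed for Fkbp5 (edgeR adjusted p = 3.52e-06).

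**Figure D2:**
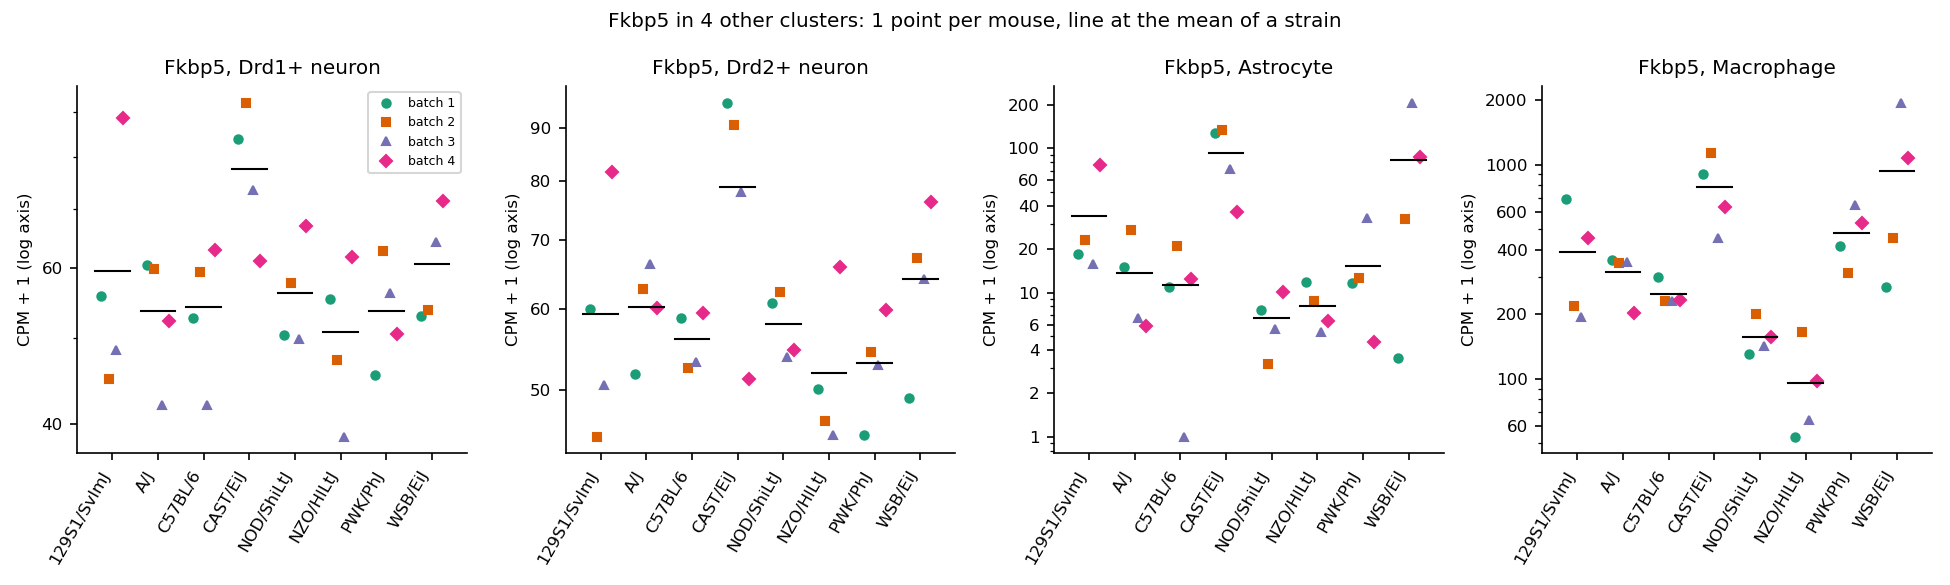
Fkbp5 in Drd1+ neurons, Drd2+ neurons, astrocytes and macrophages, in CPM plus 1 on a log axis of its own for each panel, with 1 point per mouse, a marker per batch and a line at the mean of each strain. CAST/EiJ has the highest mean in both kinds of neuron, and in macrophages the WSB/EiJ mouse of batch 3 (1947 CPM) stands above all others.

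Sgk1 was looked at for its promoter as well, because it is the member whose RefSeq promoter window holds the full palindrome to which the glucocorticoid receptor is known to bind as a pair. The motif was searched as AGAACA, any 3 bases and TGTTCT, which reads the same on both strands, in RefSeq windows of 300 bases (250 before and 50 after each start, GRCm38.p6) whose symbols matched 5 members (all but Nr3c1 and Zbtb16) with 12 windows. The chromosome of Nr3c1 was left out of this search and of the gene bodies below. The motif was found in 1 of those 12 windows and in 3 of the 32851 windows searched (0.00913%). The window belongs to 1 of the 6 Sgk1 starts and lies at chr10:21993640-21993939 on the plus strand. The motif starts at base 62 of the window, at chr10:21993701-21993715, and is printed in capitals:

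Sgk1 promoter window: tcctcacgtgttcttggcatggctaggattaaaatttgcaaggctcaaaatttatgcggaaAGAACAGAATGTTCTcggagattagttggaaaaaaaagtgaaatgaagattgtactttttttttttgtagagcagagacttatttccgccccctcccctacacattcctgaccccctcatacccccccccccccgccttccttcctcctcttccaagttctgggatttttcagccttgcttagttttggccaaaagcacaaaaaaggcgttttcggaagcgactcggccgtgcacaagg

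The motif's 6-base arms alone (AGAACA or TGTTCT) were in 4 of the 12 windows, against 19.0% of all windows. Of the 12 windows, 8 overlapped a deposited open chromatin peak, against 53.1% of all, and the printed window overlapped none. A match of letters shows neither binding nor a cause of any level. Over the gene bodies, with coordinates from the same RefSeq build, 35 peaks lay in Sgk1 (chr10:21882184-21999903), 17 in Fkbp5 (chr17:28398753-28486149), 12 in Tsc22d3 (chrX:140539528-140600522), 44 in Zbtb16 (chr9:48651797-48836225), 46 in Nr3c2 (chr8:76898083-77245012) and 7 in Crhr1 (chr11:104130463-104175523).

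The expression of Sgk1 in oligodendrocytes also varied widely, with a span between strains of 3.15 on the log2 scale against 4.08 for Fkbp5. The CAST/EiJ mice held 630, 713, 322 and 482 CPM and the WSB/EiJ mice 379, 463, 761 and 453 CPM. The NOD/ShiLtJ mice held 64.8, 37.2, 73.9 and 68.6 CPM and the NZO/HlLtJ mice 113, 47.7, 52.1 and 46.4 CPM. Every CAST/EiJ and WSB/EiJ mouse lay above every mouse of NOD/ShiLtJ, NZO/HlLtJ, A/J, C57BL/6 and PWK/PhJ, while 129S1/SvImJ (537, 144, 170 and 368 CPM) reached into both sets.

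CAST/EiJ was 3.87-fold above the mean of the others (log2 1.95 ± 0.28 SE, adjusted p = 1.69e-05), WSB/EiJ 3.65-fold (log2 1.87 ± 0.28 SE, adjusted p = 4.95e-05) and 129S1/SvImJ 2.06-fold (adjusted p = 0.0314), while NOD/ShiLtJ stood at 0.319-fold (adjusted p = 0.00729) and NZO/HlLtJ at 0.328-fold (adjusted p = 0.0199). Of the WSB/EiJ contrasts called in glia and macrophages, this was the one that also passed without the mice of batches 3 and 4, at 2.63-fold (adjusted p = 0.0337). The calls for 129S1/SvImJ, NOD/ShiLtJ and NZO/HlLtJ were each lost when 1 batch was left out (adjusted p up to 0.46, 0.089 and 0.206).

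In projection neurons the order of strains for Sgk1 was another one. PWK/PhJ mice held 197, 214, 185 and 172 CPM in Drd2+ neurons, below every one of the other 28 mice, and the WSB/EiJ mice held 389, 361, 359 and 332 CPM. PWK/PhJ was at 0.630-fold of the others (log2 −0.67 ± 0.07 SE, adjusted p = 1.2e-11) and WSB/EiJ 1.29-fold above (adjusted p = 3.55e-06). C57BL/6 was also above the others (log2 0.28, adjusted p = 0.000535) and NOD/ShiLtJ below them (log2 −0.27, adjusted p = 0.00163). In Drd1+ neurons PWK/PhJ mice held 264, 293, 245 and 228 CPM (0.731-fold, adjusted p = 6.02e-05) and WSB/EiJ mice 473, 377, 493 and 357 CPM (1.30-fold, adjusted p = 0.000605), with some overlap with other strains.

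CAST/EiJ, the highest strain in oligodendrocytes, was not called for Sgk1 in either kind of projection neuron, and the strain-by-cluster term of Drd1+ neurons and oligodendrocytes passed (adjusted p = 3.62e-06). Between Drd1+ and Drd2+ neurons that term was at the threshold (adjusted p = 0.0488) and was lost without any 1 batch. In the second Drd1+ cluster WSB/EiJ mice held 117, 156, 85.9 and 84.8 CPM, 2.01-fold above the others (adjusted p = 0.00151), and C57BL/6 mice 46.6, 39, 14.3 and 13.8 CPM, at 0.459-fold (adjusted p = 0.0188). C57BL/6 thus lay below the mean of the others there and above it in Drd2+ neurons. These calls were lost without batch 2 for WSB/EiJ and without batch 2, 3 or 4 for C57BL/6 (adjusted p up to 0.0766 and 0.124).

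In macrophages the strain term of Sgk1 passed (adjusted p = 0.00314), and no single strain passed against the others. NZO/HlLtJ had the highest mean (223, 164, 145 and 138 CPM) and WSB/EiJ the lowest (71.8, 49.1, 97.3 and 49.4 CPM), so that the 2 strains stood at the opposite ends from Fkbp5 in the same nuclei. The strain term was lost without batch 2 (adjusted p = 0.0826) and passed without the 4 libraries of 129S1/SvImJ (adjusted p = 0.00135).

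**Figure D3:**
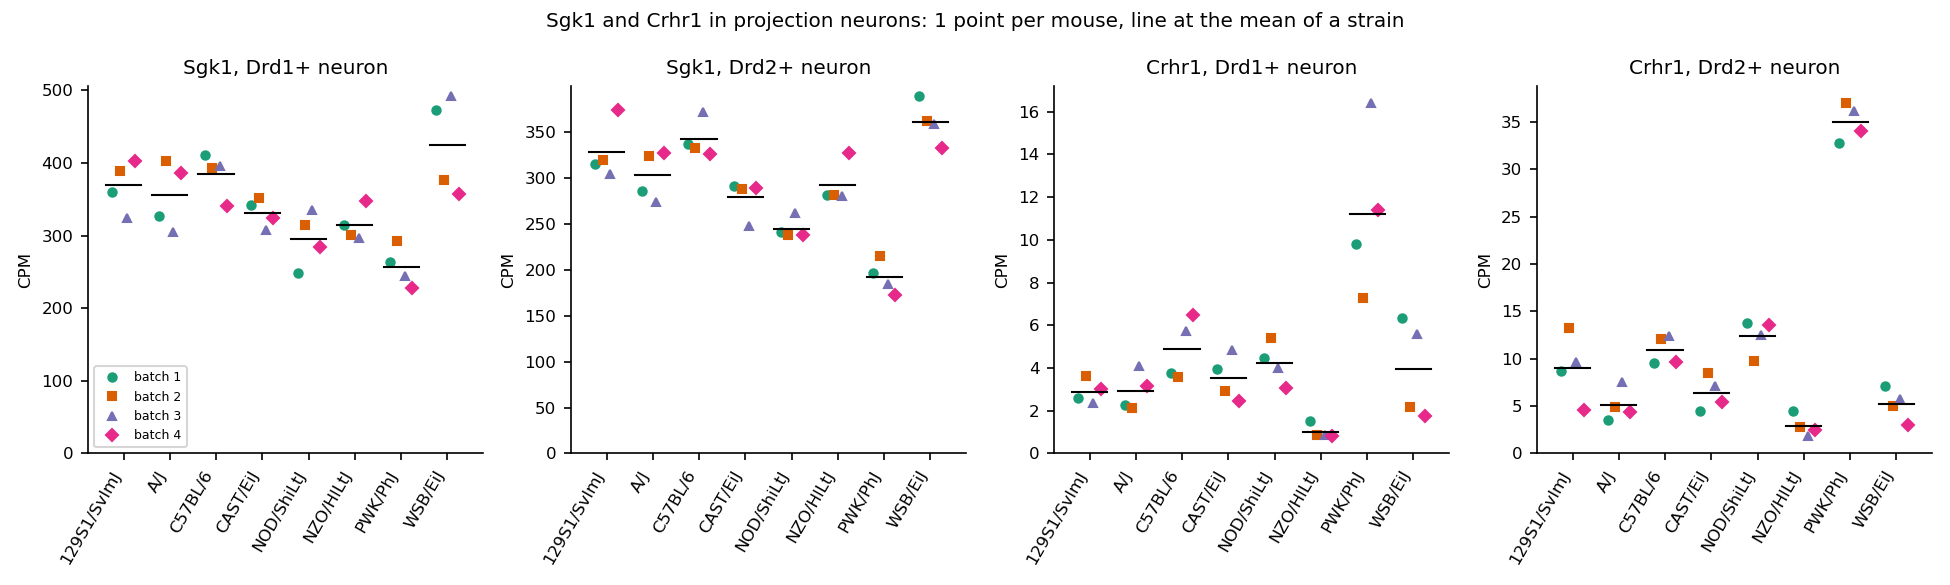
Sgk1 and Crhr1 in Drd1+ and Drd2+ neurons, in CPM on linear axes that start at 0, with 1 point per mouse, a marker per batch and a line at the mean of each strain. For Sgk1 the 4 PWK/PhJ mice lie lowest in Drd2+ neurons (172 to 214 CPM), and for Crhr1 they lie above all other mice in both clusters (7.27 to 16.4 and 32.8 to 37 CPM).

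Tsc22d3 had a narrower range in oligodendrocytes, and its strains were closely grouped. The 129S1/SvImJ mice held 226, 240, 170 and 228 CPM, the PWK/PhJ mice 224, 211, 231 and 179 CPM, and the NOD/ShiLtJ mice 102, 138, 88 and 99.7 CPM. The NOD/ShiLtJ mice were all below those of 129S1/SvImJ, PWK/PhJ, WSB/EiJ and C57BL/6. NOD/ShiLtJ was at 0.614-fold of the others (log2 −0.70 ± 0.11 SE, adjusted p = 1.76e-07), 129S1/SvImJ 1.38-fold above (adjusted p = 0.000241) and PWK/PhJ 1.31-fold above (adjusted p = 0.00444). WSB/EiJ, with 152, 205, 242 and 203 CPM, was 1.26-fold above (adjusted p = 0.019), or 1.03-fold without its mice of batches 3 and 4 (adjusted p = 0.952). The PWK/PhJ call was lost without batch 1 (adjusted p = 0.0688). CAST/EiJ, high for Fkbp5 and Sgk1 in these nuclei, held 153, 163, 130 and 131 CPM and was not called.

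In astrocytes Tsc22d3 was 70.4, 143, 273 and 172 CPM in the WSB/EiJ mice and 75.4, 28.2, 13.1 and 34.5 CPM in the NZO/HlLtJ mice. The WSB/EiJ mouse of batch 3 was again the highest, and the 2 strains overlapped through the mice of batch 1. WSB/EiJ was 2.04-fold above the others (adjusted p = 0.0264), or 1.34-fold without its mice of batches 3 and 4 (adjusted p = 0.769), and the strain term (adjusted p = 0.0198) was lost without batch 2 or 4 (up to 0.352). In endothelium, where no library was available for the A/J, CAST/EiJ and WSB/EiJ mice of batch 3, 129S1/SvImJ held 235, 256, 30.4 and 393 CPM, 2.19-fold above the others (adjusted p = 0.0348). That call was lost without batch 1, 2 or 4 and with no batch block (adjusted p up to 0.612).

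Zbtb16 had the widest span between strains of any member in oligodendrocytes, 4.44 on the log2 scale (strain term, adjusted p = 0.000681). The WSB/EiJ mice held 139, 242, 1243 and 855 CPM and the 129S1/SvImJ mice 381, 282, 244 and 818 CPM. The NOD/ShiLtJ mice held 28.2, 52.3, 21.1 and 13.7 CPM, and the NZO/HlLtJ mice 173, 78.8, 30.5 and 28.4 CPM. A mouse of batch 3 or 4 was the highest of WSB/EiJ and 129S1/SvImJ, and every NOD/ShiLtJ mouse lay below every mouse of the other strains but NZO/HlLtJ.

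NOD/ShiLtJ was at 0.135-fold of the other strains for Zbtb16 (log2 −2.89 ± 0.69 SE, adjusted p = 0.00782), WSB/EiJ 4.56-fold above (log2 2.19 ± 0.43 SE, adjusted p = 0.00115) and 129S1/SvImJ 3.22-fold above (adjusted p = 0.0146). Without the WSB/EiJ mice of batches 3 and 4 that strain stood at 1.19-fold (adjusted p = 0.913), and the 129S1/SvImJ call was lost without batch 4 (adjusted p = 0.417). The NOD/ShiLtJ call passed under each of the 9 alternatives tried. In a sum over nuclei, a larger share of nuclei with Zbtb16 and more of it per nucleus cannot be told apart, and a share of nuclei at a fixed depth moves with the level and does not separate them. Each oligodendrocyte nucleus was thinned to 1000 UMIs, which kept 11080 of 12066 nuclei. The share of thinned nuclei with at least 1 Zbtb16 UMI was 11.5%, 18.5%, 66.9% and 55.2% in the WSB/EiJ mice and 2.5%, 5.78%, 2.6% and 1.09% in the NOD/ShiLtJ mice. Over all oligodendrocytes it was 17.5% (24.6% unthinned, median 1640 UMIs), and in Drd1+ neurons, where the gene is barely read, 0.136% (0.676% unthinned, median 6505 UMIs).

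**Figure D4:**
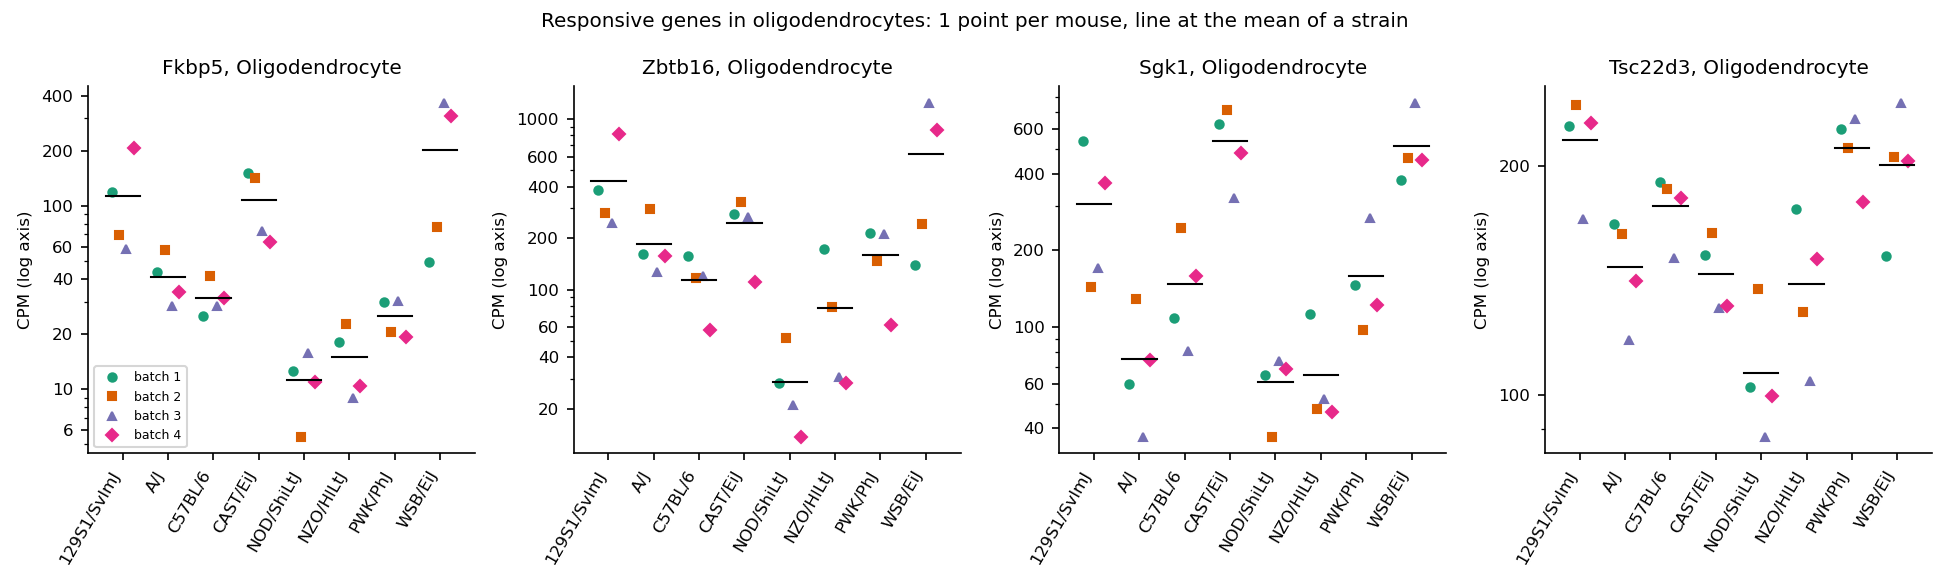
Fkbp5, Zbtb16, Sgk1 and Tsc22d3 in oligodendrocytes, in CPM on a log axis of its own for each panel, with 1 point per mouse, a marker per batch and a line at the mean of each strain. NOD/ShiLtJ has the lowest mean in each panel, and the WSB/EiJ mice of batches 3 and 4 are the highest for Fkbp5 (366 and 311 CPM) and Zbtb16 (1243 and 855 CPM).

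Zbtb16 in astrocytes held 70.4, 102, 442 and 237 CPM in the WSB/EiJ mice, 119, 105, 254 and 63.6 CPM in the PWK/PhJ mice and 36.2, 30.5, 13.9 and 18.2 CPM in the NOD/ShiLtJ mice. WSB/EiJ was 2.98-fold above the others (adjusted p = 0.0301), or 1.16-fold without its mice of batches 3 and 4 (adjusted p = 0.967), and the strain term was lost without them too (adjusted p = 0.0687). In endothelium the NOD/ShiLtJ mice (34.4, 25.9, 0 and 23 CPM) lay below every mouse of the other strains, at 0.153-fold of them (adjusted p = 0.0288). That call was lost without batch 2, 3 or 4 (adjusted p up to 0.228).

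The 2 WSB/EiJ mice that led for Fkbp5, Zbtb16 and Tsc22d3 were looked at for markers of their own and other cells. Their oligodendrocyte libraries held summed oligodendrocyte markers at 18838 and 16111 CPM (median over 32 libraries 13266 CPM), where the 8 libraries of batch 3 ranged from 14773 to 19251 CPM and those of batch 4 from 13026 to 16111 CPM. That of batch 3 held the lowest astrocyte markers of the 32 (167 CPM, median 256 CPM) and the lowest markers of Drd1 projection neurons (66.7 CPM, median 135 CPM). Their oligodendrocyte libraries held macrophage and microglial markers at a summed 39.6 and 47.7 CPM, within the range of 30.5 to 77.2 CPM over all 32 oligodendrocyte libraries (median 50.3 CPM). Their astrocyte libraries held the same markers at 42.9 and 39.2 CPM, below the median of 67.8 CPM over the 32 astrocyte libraries. Their macrophage libraries held macrophage markers at 9810 and 7414 CPM (6185 to 10718 CPM over batch 3 and 4429 to 7414 CPM over batch 4) and astrocyte markers at 657 and 605 CPM (median 359 CPM). Summed oligodendrocyte markers ranged from 854 to 1341 CPM over the 8 macrophage libraries of batch 3 and from 942 to 1922 CPM over those of batch 4. The lowest and the highest of the 32 (median 1327 CPM) were thus in these batches, and their strains are not given here. In oligodendrocytes the batch 3 mouse had 2.34% mitochondrial counts and a median of 1316 UMIs, within the ranges of the 8 libraries of its batch (2.07 to 3.02% and 1177 to 1420 UMIs), and the batch 4 mouse had 5.11% and 1752 UMIs, within those of its batch (4.40 to 5.33% and 1562 to 1877 UMIs). In macrophages the batch 4 mouse had the highest mitochondrial share of the 32 libraries (6.07%, median 4.78%). The highest share of the 32 astrocyte libraries also fell in batch 4 (4.71%, median 3.96%). The part of RNA quality, of sex and of these markers in the levels was not tested.

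Crhr1 differed between strains in each neuronal cluster where it was tested. In Drd2+ neurons the PWK/PhJ mice held 32.8, 37, 36.2 and 34 CPM, and the highest of the other 28 mice reached 13.7 CPM. The NZO/HlLtJ mice held 4.49, 2.82, 1.8 and 2.47 CPM, and the NOD/ShiLtJ mice 13.7, 9.77, 12.5 and 13.6 CPM. PWK/PhJ thus stood clear of all other mice, while NZO/HlLtJ lay at the low end with some overlap. PWK/PhJ was 5.21-fold above the mean of the others (log2 2.38 ± 0.14 SE, adjusted p = 7.07e-19), NZO/HlLtJ at 0.316-fold (log2 −1.66 ± 0.25 SE, adjusted p = 1.9e-06), A/J lower (log2 −0.83, adjusted p = 0.00195) and NOD/ShiLtJ higher (log2 0.67, adjusted p = 0.00628, or 0.146 without batch 4).

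The same ends appeared for Crhr1 in Drd1+ neurons at a lower level. The PWK/PhJ mice held 9.78, 7.27, 16.4 and 11.4 CPM and the NZO/HlLtJ mice 1.54, 0.888, 0.856 and 0.826 CPM, and each strain lay outside the range of all other mice. For NZO/HlLtJ this rested on 6, 2, 3 and 2 counts, and the nearest other mouse, WSB/EiJ of batch 4, held 5 counts (1.74 CPM). PWK/PhJ was 3.55-fold above the others (log2 1.83 ± 0.20 SE, adjusted p = 3.69e-10) and NZO/HlLtJ at 0.250-fold (adjusted p = 3.22e-05). In Drd1+ neuron_2 PWK/PhJ mice held 66.3, 50, 37.7 and 47.9 CPM, 2.49-fold above (adjusted p = 0.0041), a call that was lost without batch 1 (adjusted p = 0.0502). The strain-by-cluster term between Drd1+ and Drd2+ neurons did not pass for Crhr1 (adjusted p = 0.117).

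Strains whose mice all lay outside the range of the others were thus found for Crhr1 in Drd1+ neurons (1 of 6 members, against 9.30% of tested genes with such a strain). Crhr1 and Sgk1 had one in Drd2+ neurons (2 of 6, against 7.88%), and Zbtb16 in endothelium (1 of 6, against 1.52%), where the NOD/ShiLtJ library of batch 3 held 0 counts. Sgk1 had one in the Polydendrocyte/Oligodendrocyte cluster (1 of 3, against 0.810%), on only 3 libraries of 129S1/SvImJ (618 to 694 CPM). Libraries of that cluster had a median of 15 nuclei, and its strain term for Sgk1 did not pass (edgeR adjusted p = 0.192). No member had such a strain in oligodendrocytes, astrocytes or macrophages, where 5.31%, 2.11% and 3.73% of genes had one, nor in Drd1+ neuron_2 (1.55%) or Nxph1+ interneurons (0.351%).

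The strain-by-cluster term passed for 9 of 20 tests of the members. Between Drd1+ and Drd2+ neurons it passed for 1 of 6 members against 4.58% of all genes, between Drd1+ neurons and oligodendrocytes for 4 of 7 against 16.9%, and between Drd1+ neurons and astrocytes for 4 of 7 against 11.4%. Strain differences in Fkbp5, Nr3c1 and Tsc22d3 differed from those of Drd1+ neurons in both oligodendrocytes and astrocytes. Fkbp5 and Sgk1 against oligodendrocytes kept their call under all alternatives, and the other calls among these were lost under at least 1.

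To ask whether mice of the same strain that were high for a gene in one cell type were also high in another, the log2 CPM of each mouse was taken after subtracting strain and batch effects, and residuals were correlated over the 32 mice, with labels permuted within batches (100000 draws, two-sided). This family had 39 pairs, of which 14 passed after adjustment. Pairs of other genes were not computed, so no share over all genes stands beside the counts of pairs given here. Clusters of 1 mouse come from 1 preparation of nuclei, so they share whatever set that preparation apart. They also share the sex of the mouse, which was not subtracted.

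Fkbp5 moved together across cell types. Its residuals in oligodendrocytes and astrocytes had r = 0.856 and rho = 0.837 (permutation p = 1e-05, the smallest that these draws can give, adjusted 0.00039). Those in Drd1+ neurons followed astrocytes (r = 0.723, rho = 0.765, permutation test, adjusted p = 0.00065) and oligodendrocytes (r = 0.602, rho = 0.586, permutation test, adjusted p = 0.0113). Without the 2 mice farthest from the median the 3 values were 0.748, 0.659 and 0.496, and the last no longer passed. Without the 2 WSB/EiJ mice r was 0.726 between oligodendrocytes and astrocytes (permutation test, adjusted p = 0.00994) and 0.713 between Drd1+ neurons and astrocytes (permutation test, adjusted p = 0.00994), while between Drd1+ neurons and oligodendrocytes it was 0.558 and did not pass (permutation test, adjusted p = 0.0819). Mice of 1 strain that were high for Fkbp5 in astrocytes thus tended to be high in oligodendrocytes and in Drd1+ neurons, where the whole range was narrow.

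Zbtb16 and Tsc22d3 had the same relation between oligodendrocytes and astrocytes. Zbtb16 had r = 0.778 and rho = 0.758 (permutation test, adjusted p = 0.00039), 0.686 without the 2 farthest mice and 0.636 without the 2 WSB/EiJ mice (permutation test, adjusted p = 0.0144). For Tsc22d3 r was 0.633 and rho 0.62 (permutation test, adjusted p = 0.0174), and 0.443 without the 2 farthest mice, where the relation no longer held, and 0.483 without the 2 WSB/EiJ mice (permutation test, adjusted p = 0.128). Sgk1 had no pair of clusters past the threshold: r was 0.506 between oligodendrocytes and astrocytes (permutation test, adjusted p = 0.0706) and 0.198 between Drd1+ neurons and oligodendrocytes.

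Within oligodendrocytes 4 of the 6 pairs of the responsive genes Fkbp5, Sgk1, Tsc22d3 and Zbtb16 passed, all with positive r. How often pairs of other genes pass in these libraries was not computed. Fkbp5 had r = 0.776 with Zbtb16 (rho = 0.706, permutation test, adjusted p = 0.00104), 0.622 with Sgk1 (rho = 0.633, permutation test, adjusted p = 0.00806) and 0.527 with Tsc22d3 (rho = 0.409, permutation test, adjusted p = 0.0413). Tsc22d3 had r = 0.732 with Zbtb16 (rho = 0.641, permutation test, adjusted p = 0.00104). The pairs of Sgk1 with Tsc22d3 (r = 0.419, rho = 0.329, permutation test, adjusted p = 0.131) and with Zbtb16 (r = 0.42, rho = 0.341, permutation test, adjusted p = 0.0814) did not pass. Without the 2 farthest mice the 4 that passed were 0.646, 0.567, 0.174 and 0.566 in that order, so that the pair of Fkbp5 and Tsc22d3 rested on those mice. Without the 2 WSB/EiJ mice Fkbp5 with Sgk1 kept its call (r = 0.691, permutation test, adjusted p = 0.00994), as did Tsc22d3 with Zbtb16 (r = 0.608, permutation test, adjusted p = 0.0192), and Fkbp5 with Zbtb16 did not (r = 0.531, permutation test, adjusted p = 0.105).

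The receptor Nr3c1 ran the other way in the same nuclei. Its residuals fell as those of Fkbp5 rose in oligodendrocytes (r = −0.622, rho = −0.573, permutation test, adjusted p = 0.00673). The relation rested on few mice: r was −0.499 without the 2 farthest mice, no longer past the threshold, and −0.206 without the 2 WSB/EiJ mice (permutation test, adjusted p = 0.624). In Drd1+ neurons Nr3c1 rose with Sgk1 (r = 0.670, rho = 0.632, permutation test, adjusted p = 0.00396), 0.72 without the 2 farthest mice and 0.723 without the 2 WSB/EiJ mice, and this relation lay within strains only: with batch alone subtracted r was −0.0644 (permutation test, adjusted p = 0.849).

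In astrocytes, on fewer counts, 3 of the same 6 pairs passed, and none with Sgk1: Fkbp5 with Sgk1 had r = 0.238 (rho = 0.189, permutation test, adjusted p = 0.460). Fkbp5 with Zbtb16 had r = 0.733 (rho = 0.69, permutation test, adjusted p = 0.00104), 0.599 without the 2 farthest mice and 0.546 without the 2 WSB/EiJ mice, where it did not pass (permutation test, adjusted p = 0.068). The pairs of Fkbp5 with Tsc22d3 (r = 0.602, rho = 0.662, permutation test, adjusted p = 0.0193) and of Tsc22d3 with Zbtb16 (r = 0.555, rho = 0.547, permutation test, adjusted p = 0.0453) fell to 0.385 and 0.36 without the 2 farthest mice and to 0.423 and 0.378 without the 2 WSB/EiJ mice, and then no longer passed.

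**Figure D5:**
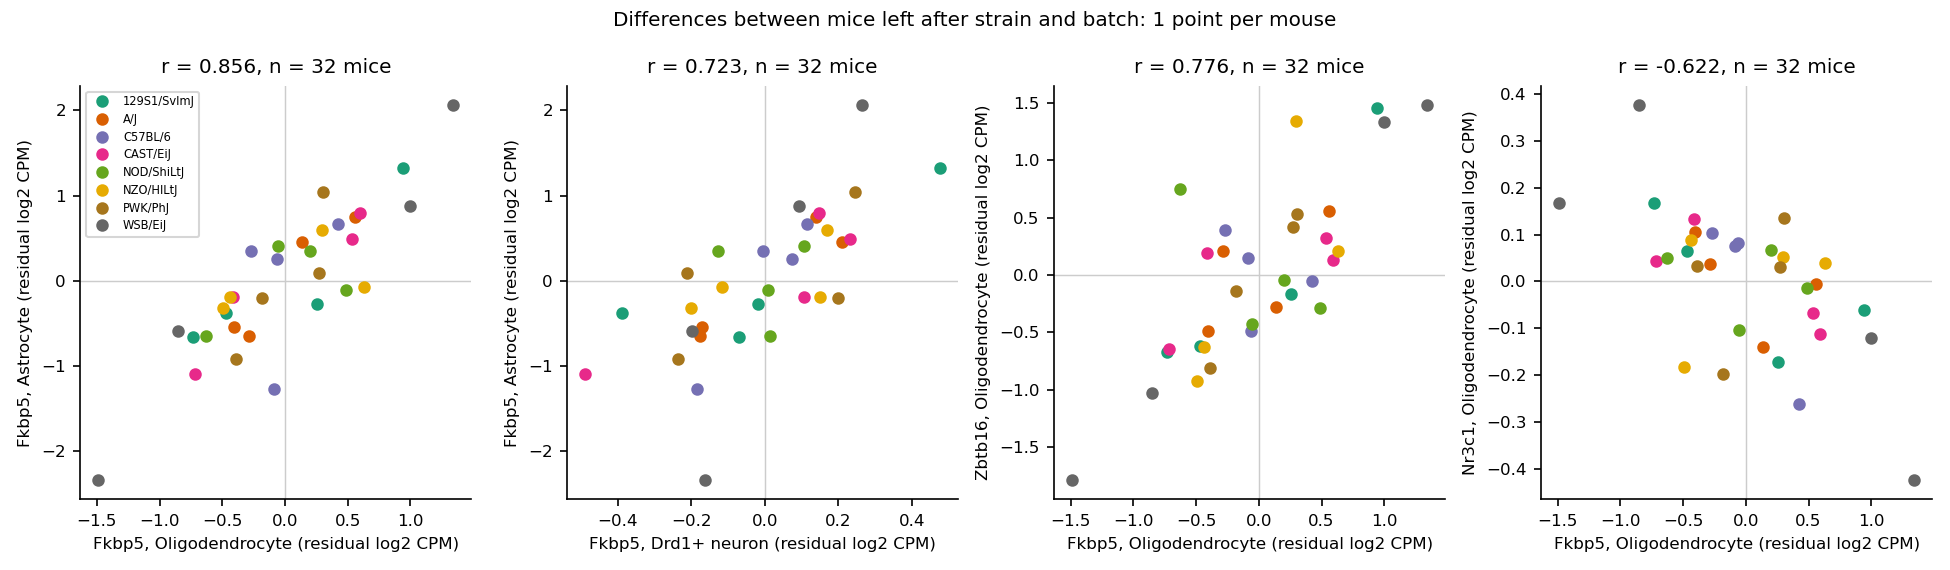
Residual log2 CPM of each mouse after strain and batch effects are subtracted, 1 point per mouse and 1 colour per strain, with Pearson's r over 32 mice above each panel. From left to right, Fkbp5 in oligodendrocytes against astrocytes (r = 0.856), Fkbp5 in Drd1+ neurons against astrocytes (0.723), and, in oligodendrocytes, Fkbp5 against Zbtb16 (0.776) and against Nr3c1 (−0.622).

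The 7 genes were set beside a list of 41 other genes known to be induced by glucocorticoids, none of them a member. The list, like the 7 genes, was chosen with earlier results of these data known. In oligodendrocytes 25 of the 41 were tested and 16 passed the strain term, against 34.8% of all genes, and the median span over the 25 was 1.29 against 0.68 over all genes on the log2 scale. Against the other strains, 13 of the 25 were higher in CAST/EiJ and none lower (9.45% of all genes were higher there), with a median log2 difference of 0.53. Among them was Pdk4, a kinase that turns cells from glucose to fat oxidation, at 252 ± 64.6 CPM in CAST/EiJ and 66.6 ± 75.5 CPM in the other 28 mice. In NZO/HlLtJ 7 of the 25 were lower and none higher (3.18% of all genes were lower), with Pdk4 at 18.4 ± 5.2 CPM and Klf9, a transcription factor, at 73.9 ± 40.3 against 140 ± 46.6 CPM. In NOD/ShiLtJ 5 were lower and none higher (3.85%), among them Spsb1, a ubiquitin ligase adaptor, at 35.6 ± 12.2 CPM against 79.6 ± 36.0 CPM in the other 28 mice. The CAST/EiJ oligodendrocyte libraries also held the listed markers of Nxph1 interneurons at a summed 265 to 313 CPM, against 124 to 269 CPM in the other 28. Of those 5 genes, Kit lay above all other mice (141 to 171 against 8.72 to 125 CPM), while Nxph1, Npy, Sst and Pvalb lay within their range, as did the summed astrocyte markers (291 to 404 against 167 to 435 CPM).

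In WSB/EiJ 8 of the 25 listed genes were higher in oligodendrocytes and 1 lower (5.86% of all genes were higher), with a median log2 difference of 0.33. Without the mice of batches 3 and 4 the list had 1 of 26 genes higher and 1 lower, with a median of 0.02, so the high level of the list in WSB/EiJ rested on the same mice as that of Fkbp5 and Zbtb16. Without those WSB/EiJ mice CAST/EiJ was higher for 15 of 26 and lower for none. Shares over all genes were not taken with mice left out. With 1 batch left out, CAST/EiJ was higher for 8 to 12 of the tested genes and lower for none, NZO/HlLtJ was lower for 2 to 6 and NOD/ShiLtJ for 2 to 6, and neither of these was higher for any.

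In astrocytes 26 of the 41 were tested and 12 passed, against 21.5% of all genes, with a median span of 1.03 against 0.74. CAST/EiJ was higher for 7 and lower for none (4.75% of all genes were higher), and NOD/ShiLtJ was lower for 3 and higher for none (1.21%). PWK/PhJ was higher for 4 (4.78% of all genes) and lower for 1 (4.17%). NZO/HlLtJ was lower for 2 (1.83%) and higher for 1 (2.97%), Pdk4, at 81.4 ± 11.9 CPM against 51.0 ± 18.4 CPM in the other 28 mice (adjusted p = 0.0175), while in oligodendrocytes Pdk4 was lower in NZO/HlLtJ. With 1 batch left out the first 2 counts ran from 3 to 9 for CAST/EiJ and from 0 to 1 for NOD/ShiLtJ. Summed astrocyte markers ranged from 2638 to 4709 CPM over the 32 astrocyte libraries (median 3550 CPM), and their part in these counts was not tested. Spsb1 was at 53.4 ± 21 CPM in PWK/PhJ and 7.63 ± 6.35 CPM in NOD/ShiLtJ, its highest and lowest strains (strain term, adjusted p = 2.42e-06). Drd1+ neurons had 12 of 24 past the strain term against 61.7% of all genes, and a median span of 0.73 against 0.65. There CAST/EiJ was higher for 5 and lower for 2 (16.8% of all genes were higher), and Klf9 was at 133 ± 16 CPM in CAST/EiJ, its highest strain, while NZO/HlLtJ was the lowest at 68.3 ± 11.5 CPM (strain term, adjusted p = 7.23e-06). The same list had 8 of 22 past the strain term in Drd2+ neurons (55.9% of all genes), 0 of 11 in Drd1+ neuron_2 (17.3%), 7 of 12 in macrophages (24.8%) and 5 of 24 in endothelium (3.23%), below the share of all genes in the neurons and above it in the other clusters named.

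The other lists hold genes that act before or beside the receptor. For their genes the highest and the lowest strain are given, with the adjusted p of the strain term over all 8 strains, and the 2 strains themselves were not tested against each other. Of 11 receptor chaperones, 6 of 11 tested passed the strain term in Drd1+ neurons, near the share of all genes (61.7%), and 0 of 11 in oligodendrocytes (34.8%). Hsp90aa1, the inducible form of the chaperone that holds the receptor ready for hormone, was at 101 ± 17.4 CPM in WSB/EiJ and 65.1 ± 6.5 CPM in CAST/EiJ in Drd1+ neurons (strain term, adjusted p = 3.27e-05). Of 11 coregulators, 6 passed among Drd1+ neurons (61.7% of all genes) and 7 among Drd2+ neurons (55.9%), while oligodendrocytes had 3 (34.8%) and astrocytes 1 (21.5%), so these counts followed the shares of all genes or lay below them. Nrip1, a corepressor, was at 116 ± 14.9 CPM in CAST/EiJ and 44.9 ± 13.9 CPM in NZO/HlLtJ in Drd1+ neurons (strain term, adjusted p = 1.69e-05).

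Genes of steroid metabolism and transport had the widest median span of these lists in Drd1+ neurons (1.23 on the log2 scale), Drd2+ neurons (1.18) and astrocytes (3.07), on 2 to 5 tested genes. Hsd11b1, which regenerates active glucocorticoid from its inactive form inside cells, was at 115 ± 56.1 CPM in astrocytes of CAST/EiJ and 20.9 ± 12.6 CPM in those of A/J (strain term, adjusted p = 4.83e-10). Abcb1b, a membrane pump that exports many compounds including steroids, was at 7.82 ± 1.24 CPM in A/J and 0.264 ± 0.32 CPM in CAST/EiJ in Drd1+ neurons (strain term, adjusted p = 3.05e-10). Of the list, 4 of 4 tested passed in Drd1+ neurons (61.7% of all genes), 3 of 5 in Drd2+ neurons (55.9%), 2 of 2 in astrocytes (21.5%), 1 of 1 in macrophages (24.8%), 0 of 1 in oligodendrocytes (34.8%) and 0 of 2 in endothelium (3.23%). None of the 6 listed genes of the corticotropin-releasing hormone system apart from Crhr1 had enough counts to be tested in any cluster.

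Kin and known targets of Sgk1 passed in 6 of 9 tested in both Drd1+ and Drd2+ neurons (61.7% and 55.9% of all genes) and in 3 of 9 in oligodendrocytes (34.8%), near the shares of all genes, and in 3 of 7 in astrocytes (21.5%) and 2 of 6 in macrophages (24.8%). Sgk3, a related kinase, was at 239 ± 23 CPM in C57BL/6 and 138 ± 7.57 CPM in CAST/EiJ in Drd1+ neurons (strain term, adjusted p = 2.08e-13). Wnk4, a kinase of salt transport, was at 24 ± 3.1 CPM in CAST/EiJ and 2.01 ± 0.918 CPM in NZO/HlLtJ there (strain term, adjusted p = 2.09e-13). Nedd4l, a ubiquitin ligase that Sgk1 phosphorylates, was at 122 ± 17.1 CPM in CAST/EiJ and 41.6 ± 13.8 CPM in NZO/HlLtJ in oligodendrocytes (strain term, adjusted p = 1.68e-11). Of the other steroid receptors, Pgr, the progesterone receptor, was at 42.5 ± 1.2 CPM in CAST/EiJ and 29.8 ± 3.21 CPM in WSB/EiJ in Drd1+ neurons (strain term, adjusted p = 0.00436).

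Genes with the most similar pattern were listed by Pearson's r as a description, with no test. Each is the closest of many genes over few points, 14895 genes over 14 clusters or, in oligodendrocytes, 3161 genes over 8 strain means. A high r can arise by chance in such a search, and how high was not tested. Over the 14 clusters, among 14895 genes, the closest were Tnip1 for Nr3c1 (0.866), Hlcs for Nr3c2 (0.869), Dnajc7 for Fkbp5 (0.925), A330015K06Rik for Sgk1 (0.853), Plin3 for Tsc22d3 (0.976), Slc35f5 for Zbtb16 (0.952) and Fam126b for Crhr1 (0.902). Over the 8 strain means, among genes that passed the strain term in the cluster, they were Otud7a for Fkbp5 (0.965) and Jade2 for Zbtb16 (0.948) in oligodendrocytes, where Dennd5b and Amer2 were among the closest 3 of both. Chordc1, a heat shock protein 90 co-chaperone, was closest to Tsc22d3 in oligodendrocytes (0.952).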

How the data were processed

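Nuclei of 32 mouse striata were profiled for RNA and open chromatin together. Per the submitters' processing notes, reads went through bcl2fastq 2.20.0.422 and Cell Ranger ARC 2.0.0 with the GRCm38 (mm10) build, and other settings are not given in the sources used here. No build of another strain is named there, and the part of sequence differences between strains in the counts was not tested. The deposited matrices hold raw counts of UMIs per gene and barcode, and the authors' deposited table gives each barcode's batch, strain, filters and cluster. Strain had been assigned to each nucleus by the authors, per the columns of that table. The 55672 nuclei with a cluster name were used, all marked there as singlets that passed the authors' quality filter, and no further doublet caller was run.

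Counts were summed per mouse and cluster (at least 10 nuclei). Tests used edgeR 4.0.16 (R 4.3.3, limma 3.58.1): TMM scaling, filterByExpr by strain, robust quasi-likelihood fits with strain and batch terms, Benjamini-Hochberg adjustment over all genes of a cluster, and a threshold of 0.05. A batch number marks a shared pool of 8 mice per the labels' protocols, so it pairs the mice and stands in the main fit as a block. The strain-by-cluster fits hold the mouse as a block. Permutation tests and tables used Python 3.11.15, numpy 2.4.6, scipy 1.17.1 and pandas 2.3.3, with a prior count of 2 for log2 CPM. The fits and the permutation test of the correlations were tested on simulated data with known changes or correlations.

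Alternatives were median-ratio size factors, DESeq2 1.42.0, no filter on low counts, no batch block, at least 30 nuclei per library, another prior count, and each batch left out. Leaving out the WSB/EiJ mice of batches 3 and 4 and leaving out the macrophage libraries of 129S1/SvImJ were added after their values were seen. The 7 genes, the gene lists and the tests were chosen with earlier results of these data known. Named genes are the 7 members, the 3 genes most like each, and, per list, up to 4 genes with the largest strain F in Drd1+ neurons and up to 2 in oligodendrocytes and in astrocytes. Depth differed between clusters: a macrophage library held 27325 to 365425 counts, and a Drd1+ library 1710451 to 9416806. Open chromatin was used only as the deposited peak positions.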

Additional observations from a re-analysis of the deposited data

Results flagged for a closer look

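The groups of 4 mice (1 strain, member and cluster) of the 24 tests whose strain term passed numbered 186. Groups of the other tests were not screened. In each, the gap between 1 mouse and the nearest of the other 3 was set against the range of the group, with Dixon's 95% critical value as the limit. In 14 groups a mouse stood apart, while chance gives about 1 in 20 groups. These shares are close, so a mouse flagged by chance cannot be told from another.

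For Sgk1 these were the NZO/HlLtJ mouse of batch 1 in oligodendrocytes (113 CPM, others 46.4 to 52.1), the NZO/HlLtJ mouse of batch 4 in Drd2+ neurons (327 CPM, others 280 to 281) and in Drd1+ neuron_2 (60.3 CPM, others 48.8 to 49.1), and the NOD/ShiLtJ mouse of batch 2 in macrophages (174 CPM, others 140 to 142). In Drd2+ neurons the CAST/EiJ mouse of batch 3 was low for Sgk1 (247 CPM, others 287 to 291) and the NOD/ShiLtJ mouse of batch 3 high (261 CPM, others 237 to 241). Batch 3 held 3 of these mice for Nr3c2 in Drd2+ neurons, each the lowest of its strain: C57BL/6 at 261 CPM (others 300 to 304), NOD/ShiLtJ at 285 CPM (others 367 to 373) and PWK/PhJ at 211 CPM (others 278 to 288). That batch had the lowest depth, and the part of depth was not tested.

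For Fkbp5 the mice that stood apart were 129S1/SvImJ of batch 4 in astrocytes (76.1 CPM, others 14.8 to 22.3), A/J of batch 4 in macrophages (202 CPM, others 347 to 358) and C57BL/6 of batch 1 in macrophages (299 CPM, others 230 to 233). Zbtb16 in astrocytes was high in the NZO/HlLtJ mouse of batch 1 (83.5 CPM, others 17.4 to 23.9), which was also high for Sgk1 in oligodendrocytes. Crhr1 in Drd1+ neurons was high in the same mouse (1.54 CPM, others 0.826 to 0.888), on 6 counts against 2 to 3 in the others.

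Strain differences that differed between clusters, by edgeR's strain-by-cluster term, were those of Sgk1 between Drd1+ and Drd2+ neurons (adjusted p = 0.0488), and between Drd1+ neurons and oligodendrocytes those of Sgk1 (adjusted p = 3.62e-06), Fkbp5 (adjusted p = 3.52e-06), Nr3c1 (adjusted p = 0.0315) and Tsc22d3 (adjusted p = 0.0281). Between Drd1+ neurons and astrocytes they were those of Nr3c2 (adjusted p = 0.00879), Fkbp5 (adjusted p = 0.00339), Nr3c1 (adjusted p = 0.0199) and Tsc22d3 (adjusted p = 0.00575).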

How the results depend on the processing

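The strain term passed for 24 of 46 tests of the members, for 24 with median-ratio size factors, 26 with DESeq2, 30 of 62 with no filter on low counts and 14 to 22 with 1 batch left out. The batch number pairs the mice of a pool: with no replicate block 21 strain terms passed, 48 strain contrasts against 53 with the block, and 8 strain-by-cluster terms against 9. With 1 batch left out, 30 to 43 contrasts, 4 to 8 strain-by-cluster terms, 0 to 6 batch terms (6 with all batches) and 4 to 13 correlations (14 with all) passed. Of the correlations 8 passed without the 2 mice farthest from the median and 6 without the 2 WSB/EiJ mice. Sgk1 with Nr3c1 in Drd1+ neurons changed sign when strain was not subtracted (r = −0.0644), and the cause was not tested. With at least 30 nuclei per library 22 of 52 pairs of neighbouring clusters differed, against 11 of 91, a setting that also left fewer clusters to compare, and the cause was not tested.

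Counts of all genes past the strain term moved with the setting in several clusters. With 1 batch left out they ran from 1138 to 1675 in astrocytes (1767 with all batches), 628 to 780 in Drd1+ neuron_2 (958), 63 to 138 in endothelium (161), 24 to 46 in Nxph1+ interneurons (61) and 6 to 58 in the Polydendrocyte/Oligodendrocyte cluster (26). In endothelium 527 genes passed with no filter on low counts and 71 with no replicate block. In Nxph1+ interneurons 109 passed with DESeq2 and 468 with no filter, and in the Polydendrocyte/Oligodendrocyte cluster 75 and 221. The strain terms of Crhr1 and Sgk1 in Drd1+ and Drd2+ neurons, of Fkbp5, Zbtb16, Sgk1 and Tsc22d3 in oligodendrocytes, of Nr3c1 in both projection neurons and of Nr3c2 in Drd1+ neurons passed under each of 10 alternatives. Libraries of astrocytes and macrophages were shallower than those of projection neurons, and the part of depth in the calls that were lost was not tested.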
